A study of Homo sapiens with 12 samples.

Results

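The hypoxia-inducible factor (HIF) genes HIF1A and EPAS1 and 8 genes known as their targets, EGLN3, VEGFA, ADM, CA9, BNIP3, ANKRD37, NDRG1 and P4HA2, were followed in T47D, a luminal breast cancer cell line that expresses the estrogen receptor. The 10 genes were chosen by name, with earlier results of these data known. They were matched from symbol to the Ensembl identifiers of the count files. All 10 were found among the 57773 genes counted, and 9 were among the 14714 genes with enough counts to be tested. The exception was CA9. RNA was sequenced in 12 libraries in 4 groups of 3: Lo19S cells with bortezomib, control cells with bortezomib, Lo19S cells with DMSO and control cells with DMSO. All cells carried a hairpin RNA, switched on by doxycycline, that targets PSMD2, which encodes part of the proteasome's 19S cap. In the Lo19S groups the hairpin had been induced with 0.2 µg/ml doxycycline for 3 days and the cells then kept without doxycycline for 24 h, and in the control groups it was uninduced. Bortezomib, an inhibitor of the proteasome's 20S core, was given at 20 nM for 16 h, and DMSO, its solvent, for the same time. Doxycycline was given to the Lo19S groups alone, so effects of doxycycline itself and of the hairpin cannot be told apart. Whether the hairpin line is a clone or a pool is not given in the sources used here, and no group is labelled as grown at low oxygen.

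HIF is a transcription factor made of an oxygen-regulated alpha subunit, encoded by HIF1A or EPAS1 (the HIF-2 alpha gene), and a stable partner encoded by ARNT. With oxygen present, prolyl hydroxylases of the EGLN family modify the alpha subunit, the VHL ubiquitin ligase recognises the modified form, and the proteasome degrades it. Without oxygen the subunit accumulates, pairs with its partner in the nucleus and binds the hypoxia response element, whose core is ACGTG or GCGTG. Its targets supply glucose transport and glycolysis, new vessels, pH control, mitophagy and collagen modification, and many of them also respond to other stress factors. These libraries measured RNA, and neither the HIF proteins nor their activity.

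Library totals ran from 7376597 to 15003480 counts. Levels are given as CPM, counts relative to library size, scaled with trimmed-mean (TMM) factors. PSMD2, the hairpin's target, was at 539.6 to 545.8 CPM in Lo19S cells with bortezomib, 1509 to 1528 CPM in control cells with bortezomib, 182.9 to 189.2 CPM in Lo19S cells with DMSO and 392 to 417.3 CPM in control cells with DMSO, so it was lower in Lo19S cells under both agents. All 8 luminal epithelial markers were present, with summed levels of 2845 to 2991, 2879 to 2965, 5494 to 5570 and 6278 to 6379 CPM in the same order of groups, and the 5 endothelial markers in the files summed to at most 0.321 CPM in any library. Fibroblast markers summed to 25.9 to 69.6 CPM and leukocyte markers to at most 2.42 CPM. COL1A1 made up most of the fibroblast sum, at 24.5 to 67.7 CPM. Of the 8 luminal markers 6 fell and 2 rose with bortezomib in each state, and their part in the results was not tested. Among replicates, the third control DMSO library (replicate 3) differed most from its partners: chi-square over degrees of freedom was 3.98 and 4.36 there, against 1.16 to 2.01 for all other replicate pairs. Separate cultures for the replicates are not mentioned in the labels, so each p-value reflects the spread among these libraries alone, which may be technical. In bulk RNA, fewer cells with a transcript and less of it per cell cannot be told apart. Scaling by library totals in place of TMM moved the median log2 fold change of all genes by -0.38 for bortezomib in control cells, -0.29 for bortezomib in Lo19S cells and 0.11 for Lo19S against control cells under bortezomib, so changes below are relative to the TMM scale.

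Promoter sequence of 8 of the 10 members was at hand from RefSeq (GRCh38.p14), all but VEGFA and NDRG1. For HIF1A only the first listed promoter was searched. In the 250 bases before the transcription start, 3 of the 8 held ACGTG on either strand (CA9, BNIP3 and ANKRD37) and 6 held ACGTG or GCGTG (also HIF1A, EPAS1 and ADM), while EGLN3 and P4HA2 held neither in this window. Of 35116 promoters of the same length, 18.5% held ACGTG, 32.2% GCGTG and 43.2% either, so a match is common. The 4 sequences below are shown because they set the 3 members with the ACGTG core beside P4HA2, a member with a large RNA response and no match here. EGLN3, the other member without a match, is not shown and was not called with bortezomib in either state. Any relation of matches to RNA responses was not tested. They run 5′ to 3′ along the gene's strand up to the base before the start, with each match to either core, read on either strand, in capitals. ANKRD37 lies at chr4:185396591-185396840 on the plus strand, BNIP3 at chr10:131981924-131982173 on the minus strand, CA9 at chr9:35673678-35673927 on the plus strand and P4HA2 at chr5:132227092-132227341 on the minus strand.
ANKRD37: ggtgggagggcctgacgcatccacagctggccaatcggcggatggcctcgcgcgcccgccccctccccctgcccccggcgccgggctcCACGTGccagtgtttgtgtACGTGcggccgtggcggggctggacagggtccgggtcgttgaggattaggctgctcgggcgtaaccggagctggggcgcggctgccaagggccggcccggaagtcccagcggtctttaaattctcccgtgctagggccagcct
BNIP3: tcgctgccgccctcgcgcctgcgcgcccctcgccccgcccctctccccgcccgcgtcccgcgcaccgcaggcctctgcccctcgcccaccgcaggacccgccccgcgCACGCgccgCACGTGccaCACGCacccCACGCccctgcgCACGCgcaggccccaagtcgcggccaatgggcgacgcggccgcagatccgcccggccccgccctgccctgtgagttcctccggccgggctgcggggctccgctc
CA9: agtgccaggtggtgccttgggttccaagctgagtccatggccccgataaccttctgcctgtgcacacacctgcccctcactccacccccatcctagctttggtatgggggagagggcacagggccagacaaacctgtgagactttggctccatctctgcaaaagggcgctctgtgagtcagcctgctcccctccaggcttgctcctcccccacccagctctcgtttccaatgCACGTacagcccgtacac
P4HA2: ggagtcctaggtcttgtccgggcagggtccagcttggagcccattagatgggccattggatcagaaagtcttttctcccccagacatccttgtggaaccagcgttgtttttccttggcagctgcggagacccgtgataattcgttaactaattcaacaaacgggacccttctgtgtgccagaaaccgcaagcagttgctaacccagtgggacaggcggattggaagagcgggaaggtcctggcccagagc
ANKRD37 had 3 ACGTG matches, 2 of which overlap as one palindromic site 162 and 161 bases before the start, with a further one at 143. BNIP3 had an overlapping pair of ACGTG at 134 and 133 bases, with 4 GCGTG matches between 143 and 104 bases. CA9 had 1 ACGTG, on the opposite strand 18 bases before the start. A match is a description of letters and not a measured binding site.

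Bortezomib was followed by higher RNA of most members in both states, and the size of that response differed between the states for some members. In Lo19S cells 7 of the 9 tested members were called higher with bortezomib and 0 lower, where 37.8% of all tested genes were called higher and 39.7% lower. In control cells 8 of the 9 were called higher and 0 lower, where 39.2% of all tested genes were called higher and 42.2% lower. The members' median log2 fold change was 0.90 in Lo19S cells, against -0.02 for all genes, and 1.19 in control cells, against -0.04 for all genes. Since the members were chosen with earlier results of these data known, these counts and medians are descriptions and not a test of hypoxia targets. Scaled by library totals, 6 members were called higher and 1 lower in Lo19S cells and 8 higher and 1 lower in control cells. NDRG1, P4HA2 and VEGFA had the 3 largest rises in Lo19S cells, and NDRG1, P4HA2 and ADM in control cells. Called genes are those with an adjusted p under 0.05 in edgeR's quasi-likelihood test with Benjamini-Hochberg adjustment over all tested genes.

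**Figure D1:**
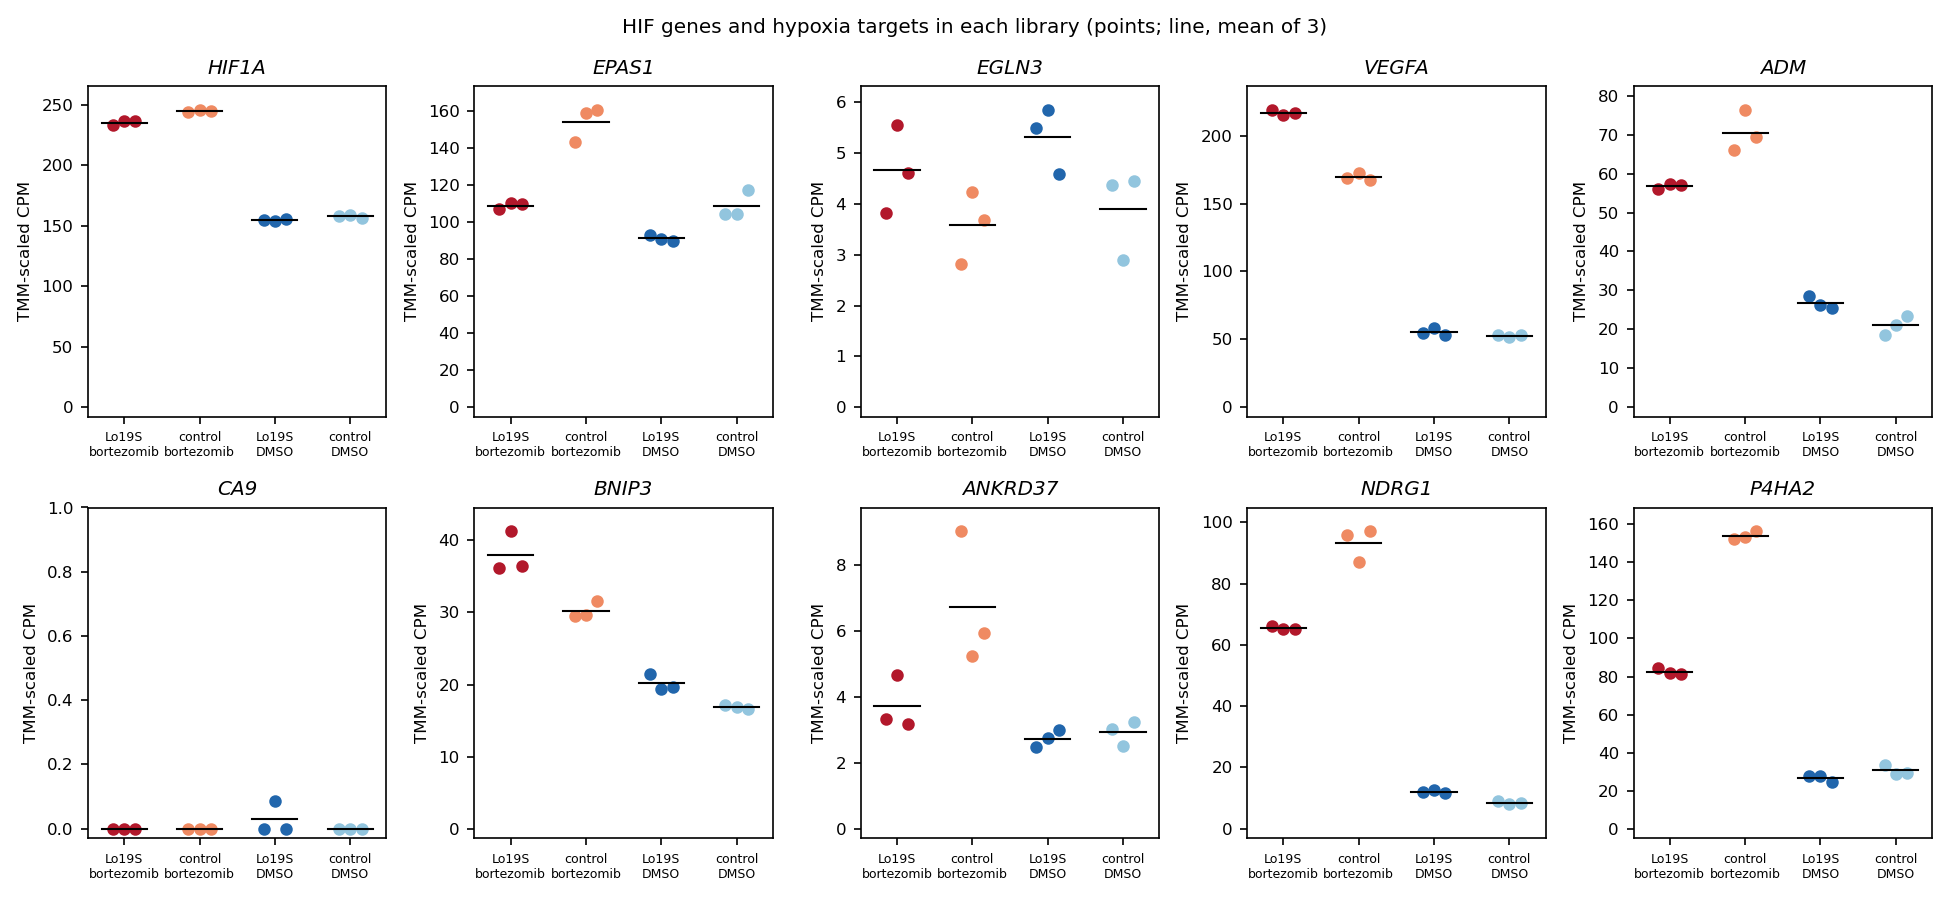
TMM-scaled CPM (vertical axes, each from 0) of the 10 genes in every library, with points for libraries and a line for the mean of 3, in Lo19S and control cells with bortezomib and with DMSO. NDRG1 is at 65.1 to 66.1 CPM in Lo19S and 87.1 to 97.1 CPM in control cells with bortezomib, above both DMSO groups, while EGLN3 overlaps between bortezomib and DMSO and CA9 is at 0 counts in 11 of 12 libraries.

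Lo19S and control cells were also compared with each other. Under bortezomib, 2 of 9 members were called higher in Lo19S cells (VEGFA and BNIP3) and 5 lower (EPAS1, ADM, ANKRD37, NDRG1 and P4HA2), where 22% of all tested genes were called higher and 21.2% lower. Under DMSO, 3 were called higher in Lo19S cells (ADM, BNIP3 and NDRG1) and 2 lower (EPAS1 and P4HA2), where 11.7% of all tested genes were called higher and 13% lower. Without control DMSO replicate 1, the number called under DMSO was 3 rather than 5. The test of whether the bortezomib response differs between states (Lo19S minus control) called 1 member higher (VEGFA) and 5 lower (EPAS1, ADM, ANKRD37, NDRG1 and P4HA2), where 14.4% of all tested genes were called higher and 13.4% lower. With library totals 1 was called higher and 3 lower, since EPAS1 and ANKRD37 lost their calls, and ANKRD37 did so in 13 of 18 alternatives. ADM and NDRG1 therefore stood higher in Lo19S than in control cells under DMSO and lower under bortezomib. These comparisons use the same 4 groups, so they share libraries and are not independent of each other.

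**Figure D2:**
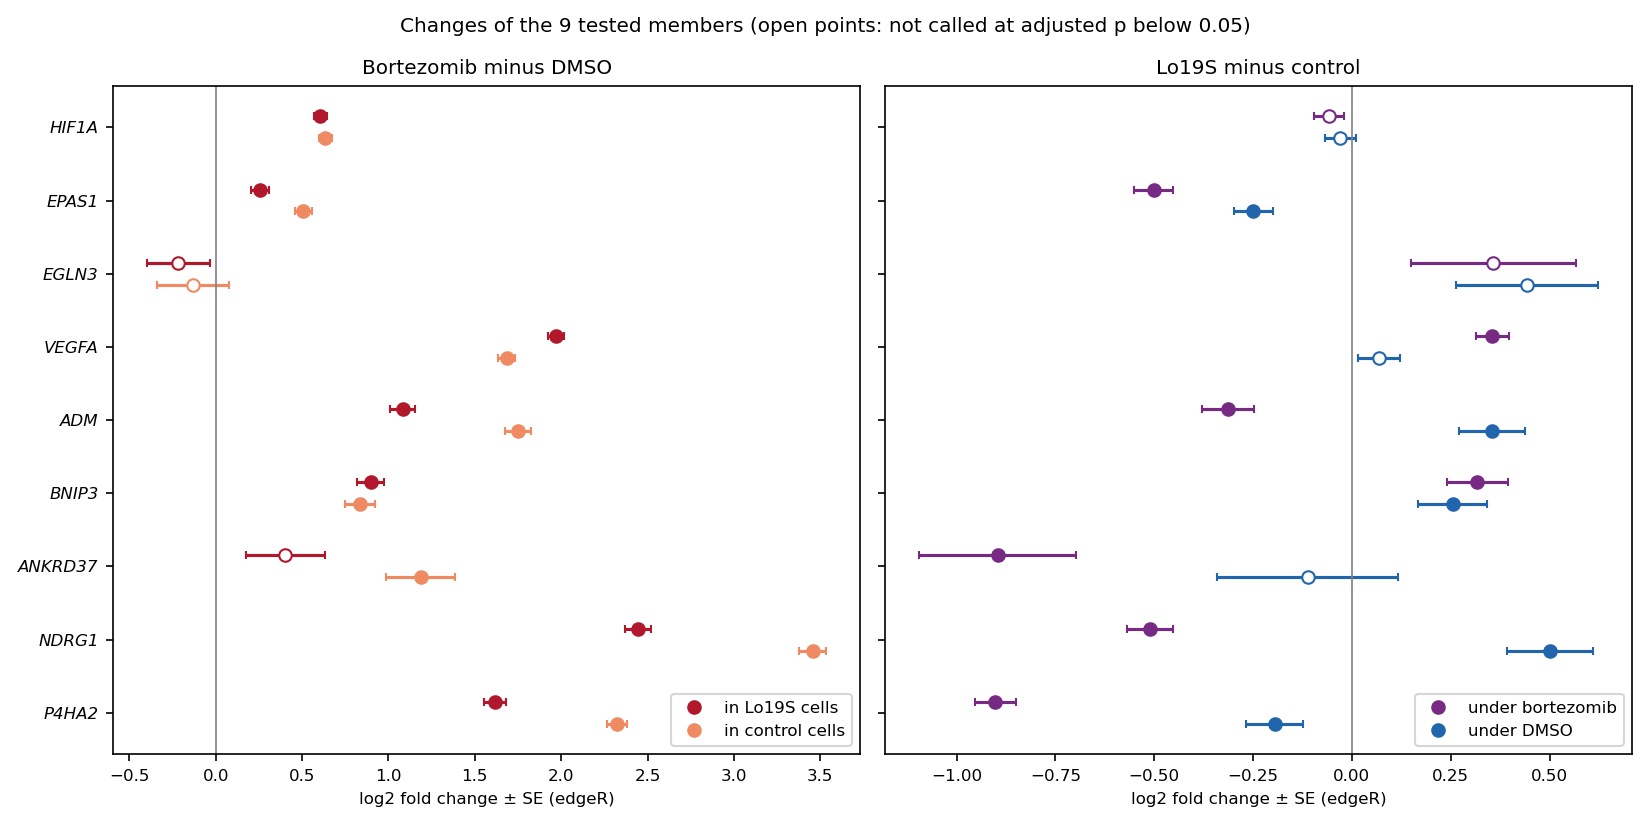
Log2 fold change with its SE (horizontal axes) of the 9 tested genes, bortezomib minus DMSO in Lo19S and control cells on the left, and Lo19S minus control under bortezomib and under DMSO on the right, with open points for genes not called. NDRG1 rose by 2.44 in Lo19S and 3.46 in control cells, and differed by -0.51 under bortezomib and 0.50 under DMSO between the states.

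HIF1A, the gene of the HIF-1 alpha subunit, was at 233, 237 and 236 CPM in Lo19S cells with bortezomib and at 244, 246 and 245 CPM in control cells with bortezomib. With DMSO it was at 155, 154 and 156 CPM in Lo19S cells and at 158, 159 and 157 CPM in control cells. All 6 bortezomib libraries lay above all 6 DMSO libraries, and the Lo19S libraries lay just below the control libraries under each agent. HIF1A rose 1.52-fold with bortezomib in Lo19S cells (log2 0.61, SE 0.038, adjusted p = 1.48e-19) and 1.55-fold in control cells (log2 0.63, SE 0.038, adjusted p = 1.69e-20). Scaled by library totals these values were 0.32 and 0.25. Between the states HIF1A was not called: the log2 difference was -0.06 under bortezomib (95% interval -0.14 to 0.03, adjusted p = 0.221) and 0.05 when scaled by library totals, and it was -0.03 under DMSO (95% interval -0.12 to 0.06, adjusted p = 0.646). The responses differed by -0.03 (95% interval -0.15 to 0.10, adjusted p = 0.748), or 0.06 scaled by library totals.

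EPAS1, the gene of the HIF-2 alpha subunit, was at 107, 110.2 and 109.6 CPM in Lo19S cells with bortezomib and at 143, 159 and 161 CPM in control cells with bortezomib. The DMSO libraries were at 93.0, 91.1 and 89.7 CPM in Lo19S cells and at 104.2, 104.5 and 117 CPM in control cells. The control bortezomib libraries were the highest of all and the Lo19S DMSO libraries the lowest, and Lo19S cells with bortezomib overlapped control cells with DMSO. In Lo19S cells EPAS1 was 1.19-fold higher with bortezomib (log2 0.26, SE 0.051, adjusted p = 1.81e-05), but scaled by library totals the change was -0.03 (adjusted p = 0.565), so its direction depends on the scaling. In control cells it rose 1.42-fold (log2 0.51, SE 0.049, adjusted p = 3.04e-13; 0.13 by library totals). EPAS1 was 1.42-fold lower in Lo19S than in control cells under bortezomib (log2 -0.50, SE 0.050, adjusted p = 1.06e-11) and 1.19-fold lower under DMSO (log2 -0.25, SE 0.050, adjusted p = 0.000131). The value under DMSO was -0.19 (adjusted p = 0.000185) without control DMSO replicate 3, the highest EPAS1 library of its group. The bortezomib responses differed by -0.25 (SE 0.071, adjusted p = 0.00536), a call lost with library totals (-0.16, adjusted p = 0.0829).

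HIF1A stood above EPAS1 in every library also per kilobase of exon, at a mean of 45.7 against 14.9 CPM per kb in Lo19S cells with bortezomib and 30.6 against 14.9 CPM per kb in control cells with DMSO. The ratio of EPAS1 to HIF1A reads within a library, which needs no scaling between libraries, was 0.460, 0.465 and 0.464 in Lo19S cells with bortezomib and 0.587, 0.646 and 0.656 in control cells with bortezomib. With DMSO it was 0.601, 0.593 and 0.575 in Lo19S cells and 0.660, 0.657 and 0.750 in control cells. EPAS1 was thus lowest relative to HIF1A in Lo19S cells with bortezomib, where the ratio overlapped with no other group. The exact 2-sided permutation test on the log2 ratio gave p = 0.1 for each comparison of 2 groups, the smallest that 3 against 3 libraries allow, so it cannot pass 0.05. The read ratios here and below were chosen after values had been seen and are descriptions.

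By Pearson correlation of log2 scaled CPM over the 12 libraries, the genes most like HIF1A were CD55, ANKRD11 and SMG1, each with r = 0.999, and 2374 tested genes had r above 0.95. For EPAS1 they were HSD17B1, TCOF1 and CDC25A, each with r = 0.98, and 41 genes had r above 0.95. HIF1A therefore followed a pattern common to many genes, and EPAS1 one shared by few. The libraries fall into bortezomib and DMSO groups, and these correlations hold that split.

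EGLN3, which encodes the prolyl hydroxylase PHD3 and is itself a HIF target, was low, at 3.82, 5.56 and 4.62 CPM in Lo19S cells with bortezomib and 2.81, 4.23 and 3.69 CPM in control cells with bortezomib. Under DMSO its level was 5.498, 5.85 and 4.60 CPM in Lo19S cells and 4.38, 2.89 and 4.46 CPM in control cells. The bortezomib and DMSO libraries overlapped in each state, and no comparison was called. The log2 change with bortezomib was -0.22 in Lo19S cells (95% interval -0.63 to 0.20, adjusted p = 0.274) and -0.13 in control cells (-0.61 to 0.35, adjusted p = 0.566, and 0.014 without control bortezomib replicate 1). Scaled by library totals EGLN3 was called lower, at -0.50 (adjusted p = 0.0106) in Lo19S cells and -0.51 (adjusted p = 0.0223) in control cells. Under DMSO it was 0.44 higher on the log2 scale in Lo19S cells (adjusted p = 0.064), and this was called without control DMSO replicate 3 (0.53, adjusted p = 0.0268). EGLN3 was thus the 1 tested member not called higher with bortezomib in either state.

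Of 16 listed partners and regulators of HIF, 14 were measured, and with bortezomib 6 rose and 5 fell in Lo19S cells and 6 rose and 6 fell in control cells. These shares are close to those of all tested genes, of which 37.8% rose and 39.7% fell in Lo19S cells and 39.2% rose and 42.2% fell in control cells. Scaled by library totals the counts were 3 higher and 10 lower in Lo19S cells and 3 higher and 9 lower in control cells, so the balance of this list depends on the scaling. VHL, which recognises hydroxylated HIF alpha, was 0.82 higher on the log2 scale with bortezomib in Lo19S cells (SE 0.051) and 0.64 higher in control cells (SE 0.051), and the ubiquitin ligase SIAH1, which acts on EGLN proteins, was 0.97 and 1.34 higher. CITED2, which competes with HIF for its coactivators, fell by 1.97 in Lo19S cells (SE 0.074) and by 1.66 in control cells (SE 0.073). The hydroxylase EGLN2 fell by 0.55 in Lo19S cells and by 1.48 in control cells, a difference of 0.94 between the responses (SE 0.154, adjusted p = 4.67e-06). ARNT fell by 0.19 with bortezomib in control cells (adjusted p = 0.00152). In Lo19S cells it differed by -0.06 (adjusted p = 0.299), but was called lower with library totals (-0.35, adjusted p = 5.72e-08) and with a minimum count of 50 (-0.11, adjusted p = 0.0426). EGLN1, the main HIF hydroxylase, differed by 0.10 (adjusted p = 0.137) in Lo19S cells and was called lower at -0.14 (adjusted p = 0.0419) in control cells, but the Lo19S value turned to -0.19 with library totals. The EGLN1 call in control cells was lost without control DMSO replicate 1 (adjusted p = 0.0714) or 2 (0.0817), control bortezomib replicate 2 (0.161) or 3 (0.0968), or Lo19S bortezomib replicate 2 (0.0885), and also in DESeq2 (0.137), with DESeq2 size factors (0.0734) and in the fit on 2 groups alone (0.0705). HIF1AN, the asparagine hydroxylase that blocks coactivator binding, was not called in any of the 5 comparisons, with log2 values between -0.04 and 0.06, but scaled by library totals it was called lower with bortezomib, at -0.33 in Lo19S and -0.40 in control cells, and higher in Lo19S than in control cells under bortezomib (0.15, adjusted p = 0.00556). With a minimum count of 50 it was called lower with bortezomib in Lo19S cells (-0.095, adjusted p = 0.0483). Under DMSO 0 of the 14 were called higher in Lo19S cells and 1 lower, the ubiquitin ligase gene SIAH2 (-0.24, SE 0.049).

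VEGFA, the endothelial growth factor, was at 219, 215 and 217 CPM in Lo19S cells with bortezomib and 169, 172 and 167 CPM in control cells with bortezomib. With DMSO it was at 54.6, 58.1 and 53.0 CPM in Lo19S cells and at 53.0, 52.1 and 53.1 CPM in control cells. The Lo19S bortezomib libraries were the highest, and the DMSO libraries of both states overlapped. VEGFA rose 3.92-fold with bortezomib in Lo19S cells (log2 1.97, SE 0.046, adjusted p = 1.1e-36) and 3.21-fold in control cells (log2 1.68, SE 0.048, adjusted p = 1.35e-33). The response was larger in Lo19S cells by 0.29 (SE 0.068, adjusted p = 0.000958), which made VEGFA the 1 member with a larger call in that state. Under bortezomib it was 1.28-fold higher in Lo19S than in control cells (log2 0.36, SE 0.042, adjusted p = 9.47e-10). Under DMSO the log2 difference was 0.07 (95% interval -0.05 to 0.19, adjusted p = 0.387). The genes most like VEGFA over the 12 libraries were WARS1, NFE2L1 and NFX1, each with r = 0.999, among 1620 genes with r above 0.95.

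Other ligands and receptors of these systems were few in the data. Of 15 listed ligands and receptors of the VEGF and adrenomedullin systems 6 were measured, and with bortezomib 2 rose and 4 fell in Lo19S cells and 2 rose and 3 fell in control cells. Of all tested genes 37.8% rose and 39.7% fell in Lo19S cells and 39.2% rose and 42.2% fell in control cells. Scaled by library totals the list had 2 higher and 4 lower in Lo19S cells and 1 higher and 3 lower in control cells. VEGFB, a related ligand, was at a mean of 7.27 CPM (SD 0.87) in Lo19S cells and 3.53 CPM (SD 0.29) in control cells with bortezomib, against 42.1 CPM (SD 0.80) in Lo19S cells and 35.8 CPM (SD 2.5) in control cells with DMSO (n = 3 each). It fell by 2.57 in Lo19S cells (SE 0.099) and by 3.34 in control cells (SE 0.121). PGF, placental growth factor, was at a mean of 3.93 CPM in Lo19S cells and 11.5 CPM in control cells with bortezomib, against 0.23 CPM in Lo19S cells and 0.50 CPM in control cells with DMSO, and rose by 3.97 (SE 0.357) and 4.44 (SE 0.238). The Lo19S DMSO mean of PGF lay below the level of 3 counts in those libraries (0.239 to 0.321 scaled CPM), so these rises rest on few DMSO reads. PGF was lower in Lo19S than in control cells under bortezomib by 1.55 on the log2 scale (SE 0.163, adjusted p = 5.44e-11), the direction opposite to VEGFA. FLT4, the VEGF receptor of lymphatic endothelium, fell by 2.04 in Lo19S cells and by 2.09 in control cells. ADM2, a relative of adrenomedullin, rose by 1.11 in Lo19S cells (SE 0.1004) and by 0.60 in control cells (SE 0.107), the second call being lost with library totals (0.22, adjusted p = 0.0616).

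ADM encodes adrenomedullin, a vasodilator peptide. It was at 56.1, 57.2 and 57.1 CPM in Lo19S cells with bortezomib and at 66.0, 76.4 and 69.3 CPM in control cells with bortezomib. The DMSO libraries were at 28.6, 26.2 and 25.4 CPM in Lo19S cells and at 18.7, 21.2 and 23.5 CPM in control cells. The 4 groups did not overlap, and the order of the states turned round between the agents. ADM rose 2.12-fold in Lo19S cells (log2 1.083, SE 0.073, adjusted p = 2.14e-18) and 3.36-fold in control cells (log2 1.75, SE 0.074, adjusted p = 2.18e-26). The response was smaller in Lo19S cells by -0.67 (SE 0.106, adjusted p = 2.51e-06). Lo19S cells stood 1.24-fold lower under bortezomib (log2 -0.31, SE 0.065, adjusted p = 9.84e-05) and 1.28-fold higher under DMSO (log2 0.35, SE 0.084, adjusted p = 0.00106).

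CA9, carbonic anhydrase IX, a membrane enzyme of pH control and a common marker of hypoxic tumour tissue, was at 0 counts in all 6 bortezomib libraries and in 5 of 6 DMSO libraries. A single read was counted in Lo19S DMSO replicate 2. A count of 0 allows up to 3 counts in a library, which corresponds to 0.216 to 0.439 scaled CPM, and this limit covers counting error only. CA9 RNA was therefore not detectable at this depth in any group, and no fold was computed. Its exons overlap those of ARHGEF39 on the opposite strand, which had 2647 counts in all. CA12, the carbonic anhydrase typical of estrogen receptor-positive cells, was at 87.7 CPM (SD 1.6) in Lo19S cells and 109.3 CPM (SD 3.7) in control cells with bortezomib, against 297 CPM (SD 3.9) and 369 CPM (SD 13) with DMSO (n = 3 each). CA12 fell by 1.76 on the log2 scale in each state (SE 0.042 in Lo19S and 0.041 in control cells), and was lower in Lo19S than in control cells by 0.31 under either agent.

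BNIP3, a mitochondrial receptor for mitophagy, was at 36.2, 41.3 and 36.5 CPM in Lo19S cells with bortezomib and at 29.6, 29.6 and 31.6 CPM in control cells with bortezomib. Under DMSO its level was 21.5, 19.4 and 19.7 CPM in Lo19S cells and 17.2, 16.9 and 16.6 CPM in control cells. Lo19S libraries were above control libraries under both agents, with no overlap. BNIP3 rose 1.86-fold with bortezomib in Lo19S cells (log2 0.90, SE 0.079, adjusted p = 2.26e-14) and 1.78-fold in control cells (log2 0.83, SE 0.085, adjusted p = 2.23e-12), and the responses differed by 0.06 (95% interval -0.21 to 0.33, adjusted p = 0.746). Lo19S cells were higher by 0.32 under bortezomib (SE 0.077, adjusted p = 0.000699) and by 0.26 under DMSO (SE 0.088, adjusted p = 0.0264). The call under DMSO was lost without control DMSO replicate 1 (adjusted p = 0.0562) or 2 (0.0576), without Lo19S DMSO replicate 1 (0.172), with no filter on low counts (0.107) and in DESeq2 (0.0744). Its paralog BNIP3L, also a mitophagy receptor, rose by 0.82 in Lo19S cells (SE 0.055) and 0.63 in control cells (SE 0.058), and was higher in Lo19S cells by 0.29 under bortezomib (SE 0.055, adjusted p = 2.41e-05).

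ANKRD37, an ankyrin-repeat protein gene, was low, at 3.34, 4.68 and 3.17 CPM in Lo19S cells with bortezomib and at 9.04, 5.23 and 5.95 CPM in control cells with bortezomib. With DMSO it was at 2.47, 2.75 and 2.99 CPM in Lo19S cells and at 3.02, 2.51 and 3.25 CPM in control cells. The control bortezomib libraries were the highest, replicate 1 above all, and the DMSO libraries of both states overlapped. ANKRD37 rose 2.28-fold in control cells (log2 1.19, SE 0.198, adjusted p = 5.73e-07), and in Lo19S cells the change of 0.40 (95% interval -0.12 to 0.93, adjusted p = 0.104) was not called. Lo19S cells were 1.86-fold lower under bortezomib (log2 -0.90, SE 0.199, adjusted p = 0.000224) and differed by -0.11 under DMSO (adjusted p = 0.779). The difference of responses, -0.78 (SE 0.305, adjusted p = 0.0485), lost its call in 13 of 18 alternatives. Among these were the fits without control DMSO replicate 1 (adjusted p = 0.0674) or 2 (0.104), Lo19S DMSO replicate 1 (0.0564), 2 (0.0919) or 3 (0.107), control bortezomib replicate 1 (-0.52, adjusted p = 0.226), and Lo19S bortezomib replicate 1 (0.0905) or 3 (0.164). The gene's exons overlap those of UFSP2 on the opposite strand, which had 3469 counts in all against 468 for ANKRD37. Whether counting used strand is not stated in these sources, and reads of the pair may be confused. UFSP2 itself was higher with bortezomib by 0.60 in Lo19S cells and 0.42 in control cells, and by 0.25 in Lo19S against control cells under bortezomib. Whether UFSP2 reads add to the ANKRD37 values was not tested.

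NDRG1, a stress- and hypoxia-responsive gene linked to growth arrest and differentiation, had the largest response of the 9. It was at 66.1, 65.1 and 65.1 CPM in Lo19S cells with bortezomib and at 95.8, 87.1 and 97.1 CPM in control cells with bortezomib. The DMSO libraries were at 11.95, 12.48 and 11.54 CPM in Lo19S cells and at 8.91, 8.01 and 8.46 CPM in control cells. The 4 groups did not overlap, and Lo19S cells were higher than control cells under DMSO and lower under bortezomib. NDRG1 rose 5.44-fold in Lo19S cells (log2 2.44, SE 0.076, adjusted p = 1.55e-31) and 10.97-fold in control cells (log2 3.46, SE 0.078, adjusted p = 8.31e-38). The response in Lo19S cells was smaller by -1.01 (SE 0.123, adjusted p = 6.58e-09). Between states it differed by -0.51 under bortezomib (SE 0.057, adjusted p = 2.7e-10) and 0.50 under DMSO (SE 0.109, adjusted p = 0.000369). The genes most like NDRG1 over the 12 libraries were HELZ, MAFG and SUPT6H, each with r = 0.999, among 2262 genes with r above 0.95.

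Of 16 listed relatives of the members 13 were measured. With bortezomib 6 rose and 5 fell in Lo19S cells, where 37.8% of all tested genes rose and 39.7% fell. In control cells 7 rose and 6 fell, where 39.2% of all tested genes rose and 42.2% fell. With library totals the relatives had 5 higher and 7 lower in Lo19S cells and 6 higher and 7 lower in control cells. NDRG3 fell by 0.28 with bortezomib in Lo19S cells (SE 0.047, adjusted p = 5.47e-07) and by 0.79 in control cells (SE 0.056, adjusted p = 7.98e-18), and was higher in Lo19S cells by 1.21 under bortezomib and 0.70 under DMSO. The ratio of NDRG1 to NDRG3 reads was 0.481, 0.474 and 0.495 in Lo19S cells with bortezomib, against 1.51, 1.58 and 1.70 in control cells with bortezomib. With DMSO it lay between 0.069 and 0.077 in Lo19S cells and between 0.075 and 0.091 in control cells. NDRG1 reads thus outnumbered NDRG3 reads in control cells with bortezomib alone. NDRG2 fell by 2.03 in Lo19S cells and by 1.93 in control cells. NDRG4, with a mean of 1.91 CPM in Lo19S cells and 2.97 CPM in control cells with bortezomib against 1.63 and 0.355 CPM with DMSO, rose by 3.06 in control cells (SE 0.367) and differed by 0.18 in Lo19S cells (adjusted p = 0.565). In control cells with DMSO NDRG4 was near the level of 3 counts in a library (0.227 to 0.279 scaled CPM), so its rise there rests on few reads. The ratio of VEGFA to NDRG1 reads was 3.32, 3.30 and 3.33 in Lo19S cells and 1.77, 1.98 and 1.72 in control cells with bortezomib, against 4.57, 4.66 and 4.59 in Lo19S cells and 5.95, 6.50 and 6.27 in control cells with DMSO. Bortezomib narrowed the gap between these members in both states, and most in control cells (exact permutation p = 0.1 for each comparison of 2 groups, the smallest possible).

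**Figure D3:**
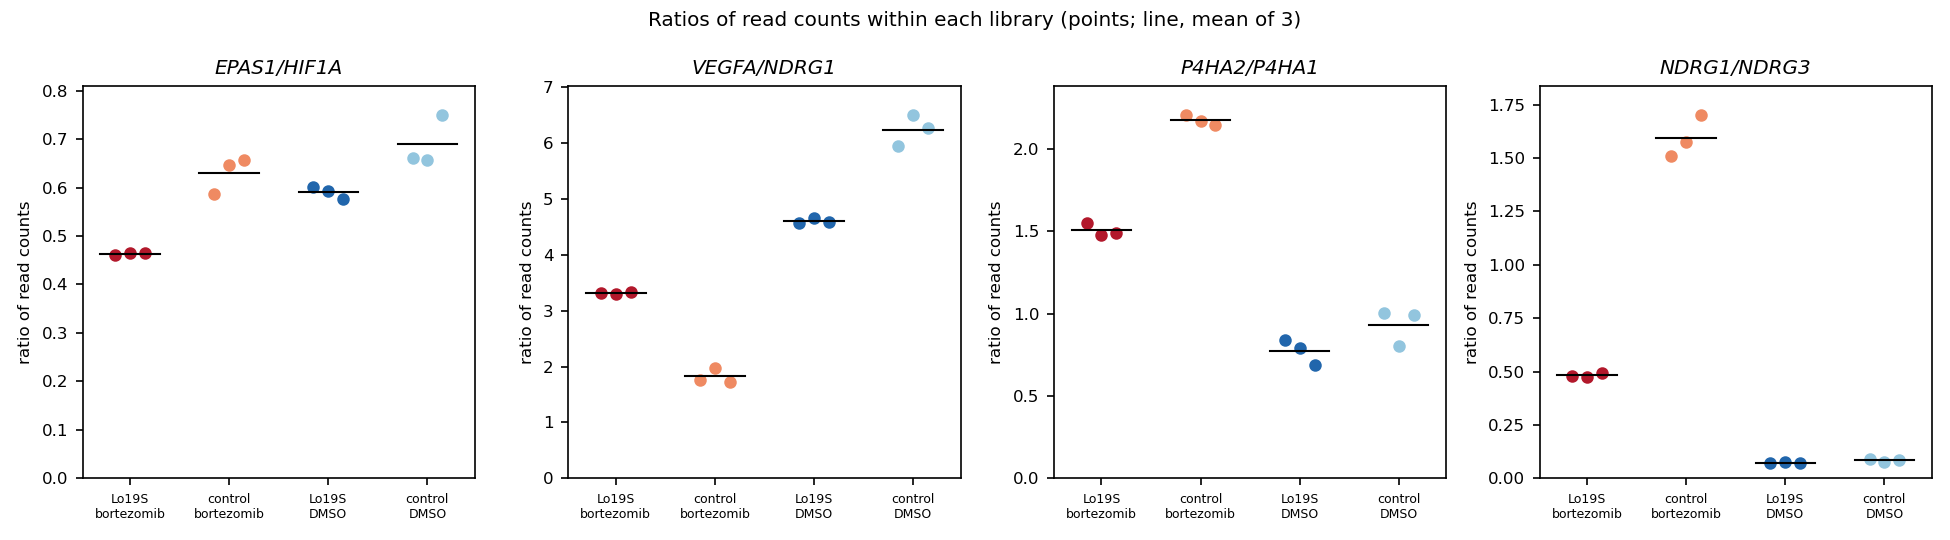
Ratio of read counts within each library (vertical axes, from 0) for EPAS1/HIF1A, VEGFA/NDRG1, P4HA2/P4HA1 and NDRG1/NDRG3, with points for libraries and a line for the mean of 3. EPAS1/HIF1A is lowest in Lo19S cells with bortezomib (0.460 to 0.465), and VEGFA/NDRG1 is lowest in control cells with bortezomib (1.72 to 1.98).

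P4HA2 encodes a catalytic subunit of collagen prolyl 4-hydroxylase. It was at 84.6, 81.6 and 81.4 CPM in Lo19S cells with bortezomib and at 153, 153 and 156 CPM in control cells with bortezomib. Under DMSO its level was 27.9, 27.8 and 24.6 CPM in Lo19S cells and 33.69, 28.96 and 29.27 CPM in control cells. The 4 groups did not overlap, with the DMSO groups close together. P4HA2 rose 3.07-fold in Lo19S cells (log2 1.62, SE 0.064, adjusted p = 2.07e-27) and 5.003-fold in control cells (log2 2.32, SE 0.058, adjusted p = 7.15e-36), a response smaller in Lo19S cells by -0.71 (SE 0.089, adjusted p = 1.84e-08). Lo19S cells were 1.87-fold lower under bortezomib (log2 -0.90, SE 0.052, adjusted p = 1.19e-19) and 1.15-fold lower under DMSO (log2 -0.20, SE 0.072, adjusted p = 0.0411). The call under DMSO was lost without control DMSO replicate 1 (-0.12, adjusted p = 0.340), without Lo19S DMSO replicate 2 (0.0526) or 3 (0.200), and in 4 further settings. P4HA1, the other main catalytic subunit, rose by 0.66 in Lo19S cells (SE 0.066) and 1.10 in control cells (SE 0.065), and was also lower in Lo19S than in control cells under bortezomib, at -0.37 (SE 0.062, adjusted p = 2.2e-06). The ratio of P4HA2 to P4HA1 reads was 1.55, 1.48 and 1.49 in Lo19S cells and 2.21, 2.17 and 2.15 in control cells with bortezomib. With DMSO it was 0.837, 0.790 and 0.691 in Lo19S cells and 1.005, 0.806 and 0.991 in control cells, overlapping between states. P4HA2 therefore rose more than P4HA1 with bortezomib in both states.

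Beyond the members, 36 further genes known as hypoxia targets were listed and 33 were measured. With bortezomib 17 rose and 12 fell in Lo19S cells, with a median of 0.12, where 37.8% of all tested genes rose and 39.7% fell. In control cells 16 rose and 14 fell, with a median of 0.05, where 39.2% of all tested genes rose and 42.2% fell. The members' medians were 0.90 and 1.19. Members and list were chosen with earlier results of these data known, so this contrast is a description only. Scaled by library totals the counts were 12 higher and 16 lower in Lo19S cells and 13 higher and 16 lower in control cells. DDIT4, an inhibitor of the growth kinase complex mTORC1, rose by 2.25 in Lo19S cells (SE 0.074) and 1.96 in control cells (SE 0.073). KDM3A, a histone demethylase, rose by 1.83 in control cells (SE 0.069), and its response in Lo19S cells was smaller by -0.42 (SE 0.102, adjusted p = 0.00124). HK2, which starts glycolysis, rose by 1.61 in Lo19S cells (SE 0.068), and its response was not called different between the states. SLC16A3, the lactate exporter, fell by 2.03 in Lo19S cells and by 2.28 in control cells. PPFIA4 fell by 2.73 and by 2.90 from low levels. RORA, a nuclear receptor gene, had 66 counts in control cells with bortezomib against 1 with DMSO, a ratio of 89.7 after scaling (95% counting interval 15.5 to 3596). In Lo19S cells RORA also rose with bortezomib (2.85, SE 0.500, adjusted p = 1.69e-06), from 7 counts with DMSO.

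HILPDA, which encodes a lipid droplet protein, stood out by its difference between the states. It was at a mean of 17.8 CPM (SD 2.4) in Lo19S cells and 4.61 CPM (SD 0.26) in control cells with bortezomib, against 50.4 CPM (SD 1.2) in Lo19S cells and 48.8 CPM (SD 3.5) in control cells with DMSO (n = 3 each). It fell by 3.40 in control cells (SE 0.110, adjusted p = 3.61e-31), and was 1.91 higher on the log2 scale in Lo19S than in control cells under bortezomib (SE 0.137, adjusted p = 3.17e-16). The responses of HILPDA differed by 1.87 (SE 0.154, adjusted p = 9.72e-14). Under bortezomib 13 of the 33 were called higher in Lo19S than in control cells and 7 lower, and for the difference of responses 9 were called higher and 8 lower. Of all tested genes 22% and 21.2% were called under bortezomib and 14.4% and 13.4% for the difference. With library totals the list had 17 higher and 6 lower under bortezomib, and 11 and 6 for the difference. Under DMSO 6 were higher and 6 lower, where 11.7% and 13% of all tested genes were called. The listed genes included ALDOA, a glycolytic aldolase, at 0.48 (SE 0.037) and CA12 at -0.31.

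**Figure D4:**
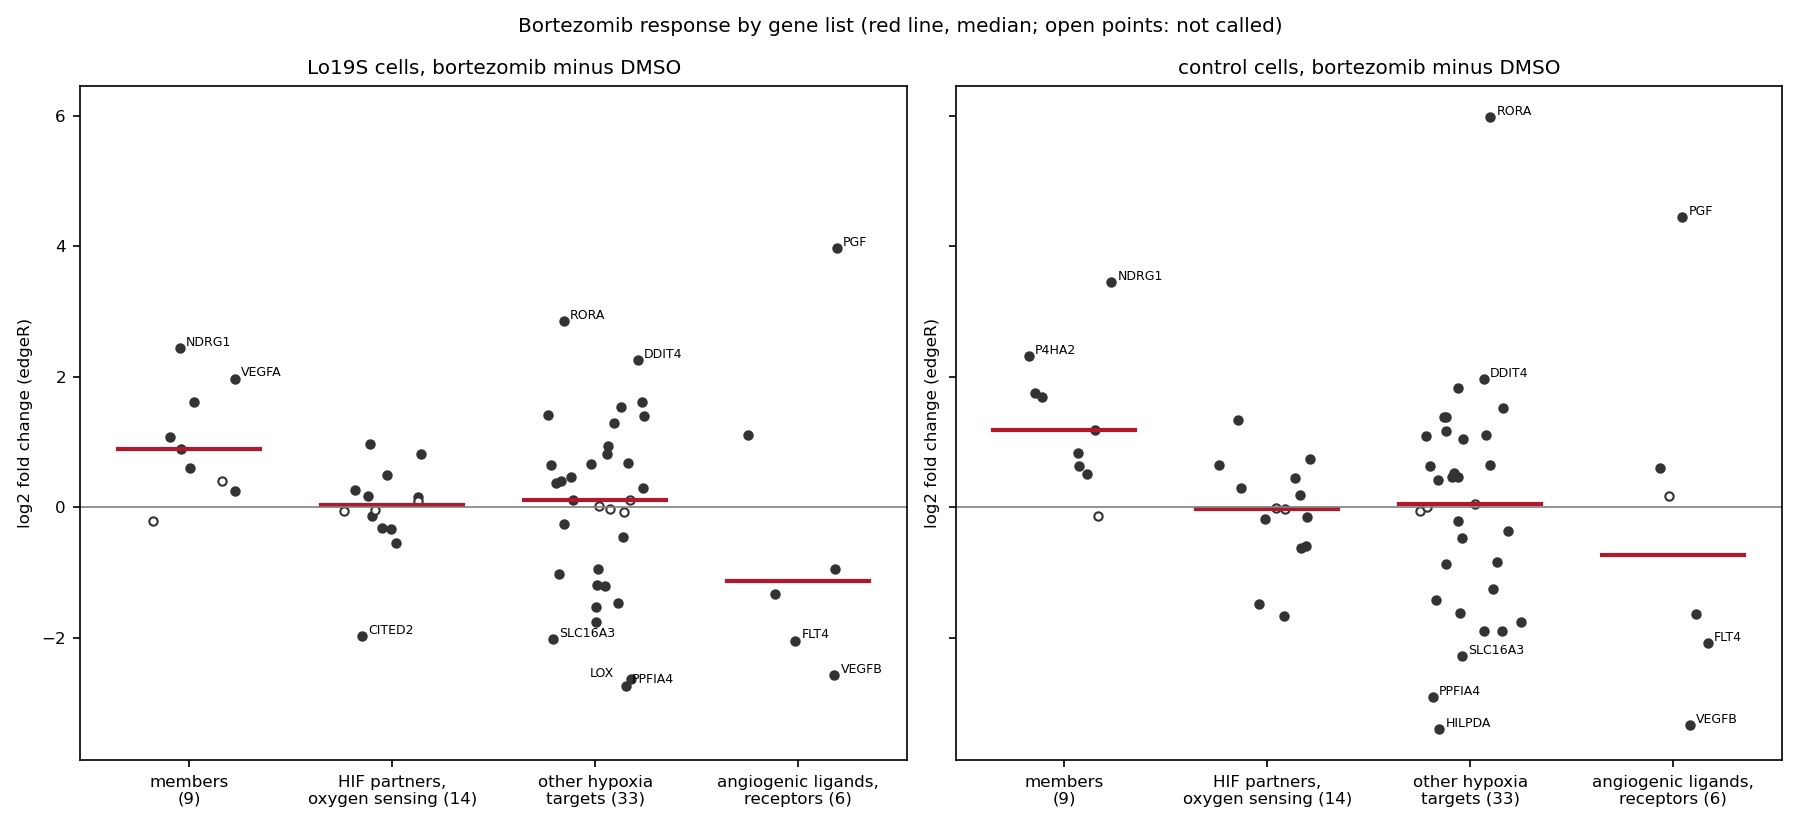
Log2 fold change with bortezomib (vertical axis) of each measured gene of 4 lists in Lo19S cells on the left and control cells on the right, with a red line for the list median and open points for genes not called. The 9 members have medians of 0.90 and 1.19 while the 33 other hypoxia targets have medians of 0.12 and 0.05. The fitted value of RORA in control cells rests on 1 count with DMSO.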

How the data were processed

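Polyadenylated RNA was measured in 12 T47D libraries, made with a stranded kit per the labels' protocols. The deposited files hold raw read counts per gene, 1 file per library, that the authors made with STAR 2.5.4b and featureCounts 1.6.1 on GRCh37, per the submitters' processing notes. The strand setting, the annotation release and the treatment of reads matching several genes are not stated in these sources, so overlapping and antisense genes are uncertain.

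Groups came from the labels. Of the 57773 identifiers, 51996 were matched to a symbol, and no row lacked a gene. Counts were filtered with filterByExpr by group (minimum count 10), scaled with TMM factors and fitted with 1 coefficient per group over all 12 libraries. Tests were edgeR 4.0.16 quasi-likelihood tests with robust fitting (R 4.3.3), with Benjamini-Hochberg adjustment over 14714 genes in each of 5 comparisons. SE was taken as |log2 fold change| divided by the root of the F statistic and is approximate, as are the 95% intervals made from it. Levels per kb use merged exon lengths of GENCODE 29. Within-library read ratios were compared by exact 2-sided permutation tests. The fit was tested on simulated counts. Alternatives were other scaling, filters and tests (DESeq2 1.42.0, voom of limma 3.58.1), a replicate block, fits on 2 groups alone and leaving out each library. Limits for a count of 0 (3 counts) and counting intervals cover counting error only, since reads are not independent molecules.

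The 10 members and the gene lists were chosen with earlier results of these data known. Genes named beside the members are those with the 3 largest called rises and falls of each list per comparison, plus ARNT, EGLN1, EGLN2, HIF1AN, VHL, P4HA1, BNIP3L and CA12, PSMD2, and the 3 genes most like HIF1A, EPAS1, NDRG1 and VEGFA. UFSP2 and ARHGEF39 were named for their overlap with a member, and not every gene that the rule takes is described.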

Additional observations from a re-analysis of the deposited data

Results flagged for a closer look

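Each value here is the log2 response to bortezomib in Lo19S cells minus that in control cells, for genes in which edgeR's test of that difference passed an adjusted p of 0.05. Among the members, the response was smaller in Lo19S cells for NDRG1 (-1.01), ANKRD37 (-0.78), P4HA2 (-0.71), ADM (-0.67) and EPAS1 (-0.25), and larger for VEGFA (0.29). The ANKRD37 call was lost in 13 of 18 alternatives and that of EPAS1 with library totals (-0.16, adjusted p = 0.0829). The knockdown target PSMD2 differed by -0.35.

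Among HIF partners and sensors, EGLN2 (0.94), SIAH2 (0.30) and EGLN1 (0.24) differed upward, and SIAH1 (-0.37), CITED2 (-0.31), CREBBP (-0.30) and ELOC (-0.24) downward. Calls of SIAH1, CITED2 and EGLN1 were lost on leaving out single libraries. For SIAH1 these were control DMSO replicates 1 and 3, Lo19S DMSO replicate 3, all 3 control bortezomib replicates and Lo19S bortezomib replicates 2 and 3 (adjusted p = 0.055 to 0.165). For CITED2 they were control DMSO replicates 1 and 2, Lo19S DMSO replicate 2, control bortezomib replicates 1 and 2 and Lo19S bortezomib replicate 3 (0.0508 to 0.153). For EGLN1 they were control DMSO replicates 1 and 2, Lo19S DMSO replicate 3, control bortezomib replicates 2 and 3 and Lo19S bortezomib replicates 1 and 3 (0.0571 to 0.122). With all libraries, SIAH1 and CITED2 also lost their calls with library totals (0.133 each), without a count filter (0.107 and 0.0898) and in DESeq2 (0.0754 and 0.0542), and EGLN1 with DESeq2 size factors (0.0516), without a count filter (0.0583) and in DESeq2 (0.116).

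Among other hypoxia targets, HILPDA (1.87), BHLHE40 (0.77), ANGPTL4 (0.70) and DDIT4 (0.29) differed upward, and RORA (-3.14), P4HA1 (-0.44), PFKFB4 (-0.44), KDM3A (-0.42), PLOD1 (-0.40) and ALDOA (-0.35) downward. The RORA value rests on 1 count in control DMSO libraries and depends on the prior count. Its call was lost without control DMSO replicates 1 or 3, Lo19S DMSO replicates 2 or 3, control bortezomib replicates 1 or 2, or Lo19S bortezomib replicate 2 (adjusted p = 0.0505 to 0.211). PFKFB4 lost its call without Lo19S DMSO replicate 2, control bortezomib replicate 1 or Lo19S bortezomib replicate 3 (0.0513 to 0.114). ANGPTL4 lost its call when control DMSO replicate 2, Lo19S DMSO replicates 1 or 2, control bortezomib replicates 1 or 2, or Lo19S bortezomib replicate 1 was left out (0.0585 to 0.146). With all libraries, PFKFB4 lost its call with library totals (0.0743), without a count filter (0.0696) and in DESeq2 (0.058), ANGPTL4 in DESeq2 (0.0794) and RORA without a count filter (0.0692). Single libraries were not left out, and other tests and filters not run, for the differences of DDIT4, KDM3A, PLOD1, ALDOA and ELOC. The DDIT4 call was close to the threshold (adjusted p = 0.0453 in edgeR's test). Among relatives of the members, NDRG3 (0.51) and the ligands VEGFB (0.77) and ADM2 (0.51) differed upward and NDRG4 (-2.88) downward. The NDRG4 value rests on few reads in control cells with DMSO.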

How the results depend on the processing

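Of 45 member results (9 genes in 5 comparisons), 34 kept their direction and their side of the threshold in every alternative run, and the other named genes did so in 89 of 120. The number of members called under DMSO, 5, was 3 with DESeq2, and on leaving out 1 library ranged from 3 to 6. The cause was not tested. With library totals, EPAS1 with bortezomib in Lo19S cells was -0.033 and EGLN1 was -0.19. HIF1A turned to 0.054 between the states under bortezomib, and the differences of responses to 0.065 for HIF1A, 0.0076 for EGLN3, 0.069 for HIF1AN and 0.092 for CA12. With no filter on low counts EGLN1 under DMSO was -0.012 and the CA12 difference 0.020, which was 0.0012 with voom. HIF1AN with bortezomib in control cells was 2.1e-06 with DESeq2 size factors and 0.00018 in DESeq2. On leaving out 1 library, values ran across 0 for uncalled results: under DMSO, EGLN1 from -0.032 to 0.057 and P4HA1 from -0.0029 to 0.13; with bortezomib in control cells, HIF1AN from -0.048 to 0.037 and EGLN3 from -0.30 to 0.014. HIF1AN between the states under bortezomib ran from -0.013 to 0.069. The differences of responses ran from -0.22 to 0.083 for EGLN3, from -0.075 to 0.0078 for HIF1AN and from -0.026 to 0.032 for CA12.

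Replicate numbers did not pair the libraries: deviations of same-numbered libraries correlated between -0.072 and 0.026. With a replicate block 5, 8, 7, 7 and 5 members were called for the states compared under DMSO, for bortezomib in control and then in Lo19S cells, for the states compared under bortezomib, and for the difference of responses, against 5, 8, 7, 7 and 6 without it. The block ended the calls of ANKRD37 (-0.78, adjusted p = 0.0573) and SIAH1 (-0.37, adjusted p = 0.0507) for the difference of responses, and no other call of a named gene. ANKRD37 did not pass a minimum count of 50, and a fit on 2 groups alone was not run for the difference of responses, which needs all 4. Depth limits EGLN3, ANKRD37 and CA9, each below 10 CPM in all libraries.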
